A study of Mus musculus with 26 samples.

Results

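The genes described here were those that type I interferon is known to induce, followed in EML cells, a mouse blood progenitor line with erythroid, myeloid and lymphoid potential. They were given as a list of 43 symbols, and every probe of a listed gene was taken. At least 1 probe was found for 40 of the 43 genes, which made 58 of the 41174 probes and 40 of the 32481 genes on the array. Mx1, Mx2 and Dtx3l were not matched. A gene with several probes was represented by the probe with the highest mean signal over the 26 arrays.

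The arrays held 8 groups in 3 sets that were scanned separately. The first set held 3 fractions sorted from untreated EML cultures, named Sca1hi, CR Sca1lo and EryCP in the labels, with 3 arrays each. The second held 3 arrays of Ediff cells and 3 of a repeat of the EryCP fraction. Ediff cells were negative for CD34 and cKit and were collected after EryCP cells had differentiated under erythropoietin (Epo), the hormone that drives red cell formation. The third held 4 arrays of CD34- CD103- cells, 4 of CD34+ CD103- cells and 3 of the CD34- CD103- Epo group, the first of these fractions after Epo differentiation. All cultures were grown in medium with horse serum and medium conditioned with stem cell factor, and the labels name no interferon treatment in any group. Titles of the third set name the cells EMLe2, which the labels do not explain, and give EML as the line of origin for all groups. EML is a single line, immortalised with a dominant-negative retinoic acid receptor. The labels give neither the Epo dose and time nor whether arrays of a group came from separate cultures, so p-values measure only the spread between these samples.

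Type I interferons bind the receptor pair Ifnar1 and Ifnar2, whose kinases Jak1 and Tyk2 phosphorylate Stat2. With Irf9 it forms part of a complex that binds a DNA element named ISRE (interferon-stimulated response element), and it switches on genes that block viral replication: RNA sensors, 2-5A synthetases, IFIT proteins, the ubiquitin-like protein Isg15 and others. Irf7, itself an induced gene, amplifies interferon production, and Irf1 is induced mainly by interferon gamma through a second element named GAS. Some of these genes are known to be active in stem and progenitor cells without added interferon. Sca1, encoded by Ly6a and used to sort the first set, is itself an interferon-inducible surface protein.

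The 200 bases before the start of 6 members are shown, picked from the members with differences below, with ISRE matches in capitals. Oasl2 is shown as a member with large differences and no match. The 6 do not stand for all members with differences. Irf1, Irf7, Cmpk2, Ifi35, Isg20 and Samd9l also had called differences, held no match and are not shown. The letters searched were GAAA, any 2 bases and GAAA again, on both strands, and matches could overlap. All sequences are from RefSeq on GRCm38.p6, 5′ to 3′ on the strand of the gene. The windows are chr12:26456453-26456652 (minus strand) for Rsad2, chr4:156200819-156201018 (minus) for Isg15, chr19:34640689-34640888 (plus) for Ifit1, chr19:34583329-34583528 (plus) for Ifit3, chr11:58199356-58199555 (plus) for Igtp and chr5:114896734-114896933 (plus) for Oasl2.
Rsad2: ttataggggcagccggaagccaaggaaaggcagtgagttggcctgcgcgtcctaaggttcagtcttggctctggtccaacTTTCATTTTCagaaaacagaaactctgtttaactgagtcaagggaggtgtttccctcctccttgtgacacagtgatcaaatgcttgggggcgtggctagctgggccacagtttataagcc
Isg15: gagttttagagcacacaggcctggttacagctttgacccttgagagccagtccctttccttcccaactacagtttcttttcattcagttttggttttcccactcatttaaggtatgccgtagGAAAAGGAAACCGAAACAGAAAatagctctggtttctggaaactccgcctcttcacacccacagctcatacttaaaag
Ifit1: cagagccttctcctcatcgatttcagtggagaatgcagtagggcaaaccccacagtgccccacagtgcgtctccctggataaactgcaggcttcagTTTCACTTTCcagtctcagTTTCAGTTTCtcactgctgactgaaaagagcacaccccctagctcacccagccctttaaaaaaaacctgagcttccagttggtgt
Ifit3: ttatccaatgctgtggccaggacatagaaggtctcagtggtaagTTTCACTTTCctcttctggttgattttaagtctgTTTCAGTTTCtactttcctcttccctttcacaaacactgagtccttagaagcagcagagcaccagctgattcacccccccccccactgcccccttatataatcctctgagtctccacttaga
Igtp: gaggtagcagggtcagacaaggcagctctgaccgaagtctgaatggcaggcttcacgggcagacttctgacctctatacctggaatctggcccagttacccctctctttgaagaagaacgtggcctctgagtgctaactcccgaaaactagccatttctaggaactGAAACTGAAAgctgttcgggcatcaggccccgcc
Oasl2: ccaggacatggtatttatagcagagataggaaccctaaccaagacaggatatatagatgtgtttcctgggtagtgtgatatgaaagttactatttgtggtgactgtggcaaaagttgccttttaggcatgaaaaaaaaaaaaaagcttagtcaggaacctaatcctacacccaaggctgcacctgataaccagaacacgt

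The Rsad2 match began 120 bases before the start and the Igtp match 34 bases before it. Ifit1 held 2 matches, at 104 and 85 bases, and Ifit3 held 2, at 156 and 122 bases. In Isg15 3 overlapping matches began 78, 72 and 66 bases before the start. Over windows from 250 bases before to 50 after the start, ISRE letters were present in 16 of the 34 members that had a window (47.1%) and in 3.99% of 27025 genes. The 11 further members with a match were Bst2, Ddx58, Eif2ak2, Gbp2, Gbp3, Ifih1, Irgm1, Oas1a, Oas3, Stat2 and Trim21. GAS letters (TTCNNNGAA, both strands) were present in 9 of the 34 members (26.5%) and in 9.55% of genes, with 4 members holding both elements and 13 neither. A match describes letters in this window and not binding. Oas2, Usp18, Mx1, Mx2, Dhx58, Parp9, Parp14, Rtp4 and Tap2 had no window in the table used.

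Levels are log2 signals relative to the 75th percentile of each array, so that a level of 0 is the signal of that percentile and a difference of 1 is a doubling. Between 76.2% and 93.9% of probes were above background per array, replicates correlated at 0.9677 or more, and no pair of arrays was identical. The number of arrays limits the precision. Ly6a, the gene of the sorted antigen, followed the labels of the first set, at 4.15 ± 0.04 in Sca1hi, -1.41 ± 0.08 in CR Sca1lo and -2.25 ± 0.16 in EryCP (SD, n = 3 each). All 5 progenitor markers examined were above background on every array of the untreated groups, and Cd34 was above background on no Ediff array. In the third set the Cd34 probe was still at 5.05 ± 0.31 (SD, n = 4) in CD34- CD103- cells, against 6.83 ± 0.14 (SD, n = 4) in CD34+ CD103- cells. A gene was called higher or lower at an adjusted p under 0.05, from limma with Benjamini-Hochberg adjustment over all genes tested in the set, and errors of differences are standard errors (SE). In bulk RNA, fewer cells of a type and less RNA per cell cannot be told apart.

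In the first set, interferon response genes were highest in Sca1hi cells, lower in CR Sca1lo cells and lowest in EryCP cells. Their group means had that order in 31 of the 38 members tested, against 21.2% of all genes. A further 6 members had the order Sca1hi, EryCP, CR Sca1lo (12.8% of all genes), and Tap2 alone was highest in CR Sca1lo. Oas2 and Ifi44 were not tested, because no group had them above background on every array. Gbp3, Parp12 and Ifit3 were tested only because Sca1hi had them above background on every array, which favours a Sca1hi mean on top. The 3 comparisons of the set share groups, so each is given by its own values.

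**Figure D1:**
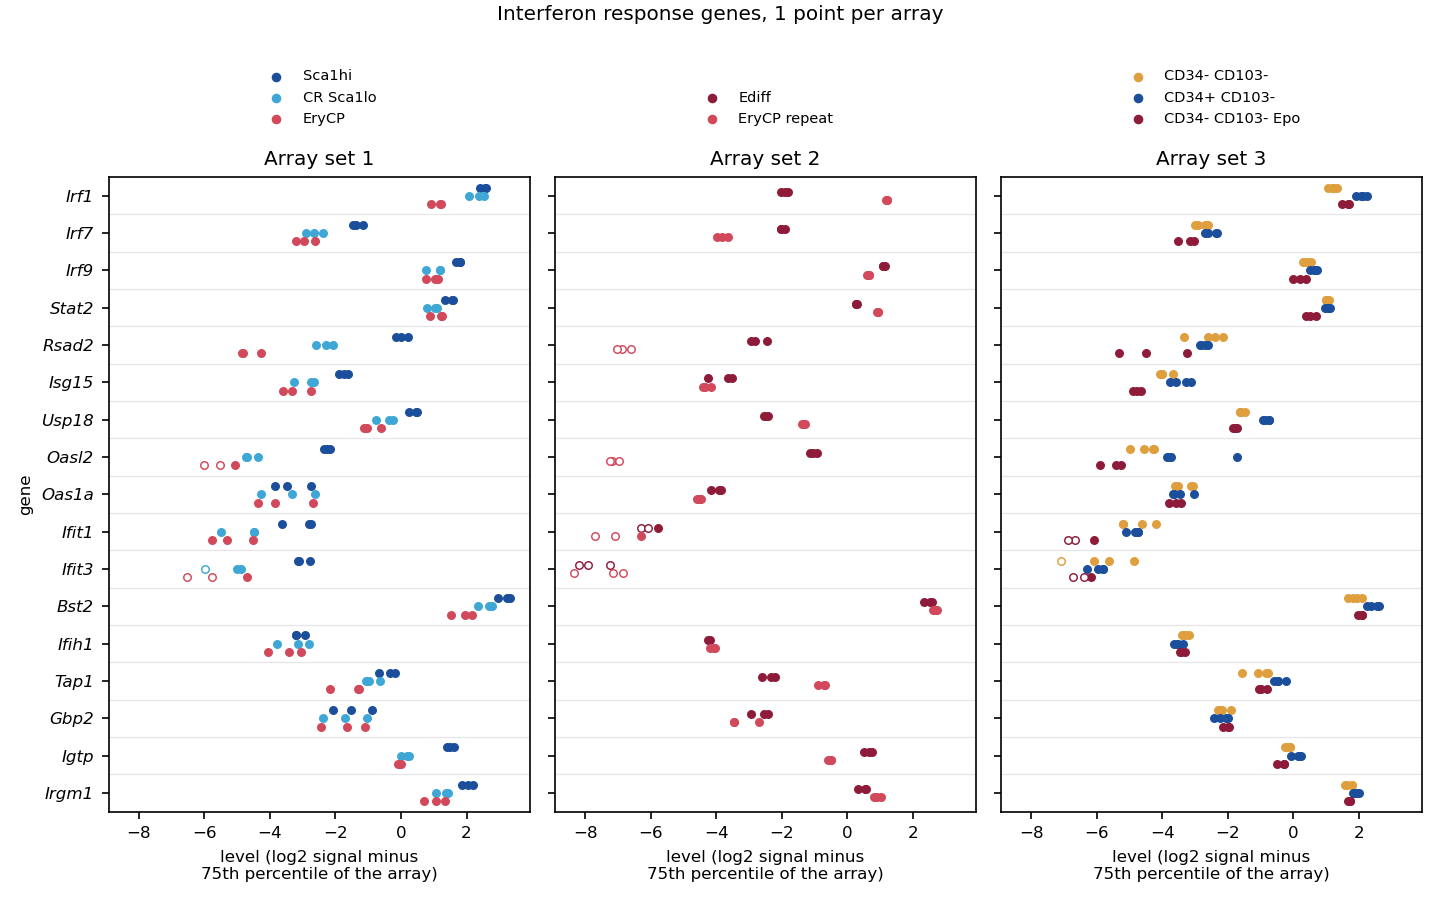
Level of 17 members (rows) on every array (log2 signal relative to the 75th percentile of the array), by group; points are single arrays, colours are groups and open symbols are arrays where the probe was not well above background. Rsad2 spans 0.2 in Sca1hi to -4.84 in EryCP within the first set, and Oasl2 lies between -1.14 and -0.92 in Ediff against -7.23 to -6.96, all below background, in the EryCP repeat.

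Between EryCP and Sca1hi cells, 19 of the 38 members were lower and 0 were higher. Of all 26449 genes tested, 6.45% were called and 3.29% were called lower. At an unadjusted p under 0.05, 25 members were lower and 0 higher. All 38 differences were negative, with a median of -0.95 against -0.035 over all genes. Gbp3, Parp12 and Ifit3 entered through Sca1hi alone, which favours a negative sign. Among genes above background on every array of both groups, 17 of 34 members were lower and 0 higher (6.8% of such genes called). The median there was -0.84 against -0.041. In 26 members every EryCP array was below every Sca1hi array, which held for 8.83% of all genes, and in 0 members was the reverse true (10.2% of genes).

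Rsad2, the viral inhibitor viperin, differed most. Its level was 0.2, -0.011 and -0.16 in Sca1hi, then -2.08, -2.29 and -2.6 in CR Sca1lo, and -4.83, -4.28 and -4.84 in EryCP. The 3 groups did not overlap. Rsad2 was 25.2-fold lower in EryCP than in Sca1hi (difference -4.66 ± 0.22, adjusted p = 1.66e-05), and its differences within the 3 slides ran from -5.03 to -4.12. The other Rsad2 probes also gave negative differences, down to a size of -1.32, so the fold depends on the probe. In the other scalings its difference ran from -4.65 to -3.29.

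Parp14, an ADP-ribosyltransferase, was at 0.51, 0.37 and 0.33 in Sca1hi, -1.41, -1.34 and -1.66 in CR Sca1lo, and -2.96, -3.16 and -2.83 in EryCP. These groups were also fully apart, and Parp14 was 10.5-fold lower in EryCP than in Sca1hi (-3.39 ± 0.16, adjusted p = 1.63e-05). Its probes ranged from -3.39 to -1.03 in that comparison. Oasl2, a 2-5A synthetase-like protein, was at -2.16, -2.27 and -2.36 in Sca1hi and at -4.37, -4.72 and -4.7 in CR Sca1lo. In EryCP it read -5.51, -5.06 and -6.01, and only the array at -5.06 was above background. Oasl2 was 9.58-fold lower in EryCP than in Sca1hi (-3.26 ± 0.24, adjusted p = 0.000126), with -3.25 to -1.53 in the other scalings, so its fold is uncertain.

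Among the transcription factors, 3 of 4 were lower in EryCP than in Sca1hi. Irf1 fell by 1.4 ± 0.17 (adjusted p = 0.0018), Irf7 by 1.61 ± 0.2 (0.00227) and Irf9, the DNA-binding part of the Stat complex, by 0.78 (0.0377). Stat2 differed by -0.37 (adjusted p = 0.366) although its 3 EryCP arrays lay below all Sca1hi arrays. Among the 2-5A synthetase family, which makes the activator of RNase L, Oasl2 was the 1 of 4 called, and Oas1a differed by -0.29 (adjusted p = 1). In the fit with the slide as a block Oas3 (-0.62, adjusted p = 0.00647) and Oasl1 (-0.61, adjusted p = 0.0458) were also lower.

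IFIT proteins bind viral RNA ends, and 2 of 3 were lower. Ifit3 differed by -2.68 ± 0.47 (6.39-fold, adjusted p = 0.0118) with 1 of 3 EryCP arrays above background and -2.66 to -1.06 in the other scalings, and Ifit1 by -2.14 ± 0.42 (4.4-fold, adjusted p = 0.0204). The near-identical Ifit3b can share signal with the Ifit3 probe, and likewise the members of the Oas1 family with Oas1a. In the Isg15 system, Isg15 (-1.48, adjusted p = 0.0125) and its protease Usp18 (-1.33, adjusted p = 0.0061) were both lower, 2 of 3 members. Of the RNA sensors, Ddx58, which encodes RIG-I, fell by 2.47 ± 0.13 (5.54-fold, adjusted p = 3.12e-05; -2.47 to -0.72 over its 4 probes) and Dhx58 by 1.83 (adjusted p = 0.00129). The remaining sensor, Ifih1, which encodes MDA5, differed by -0.4 (adjusted p = 0.867).

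Of 4 interferon-induced GTPases, which act on membranes around pathogens, Igtp fell by 1.54 (adjusted p = 0.000295) and Irgm1 by 1.0 (0.0259), while Gbp2 differed by -0.23 (adjusted p = 1). Igtp was at 1.61, 1.5 and 1.4 in Sca1hi and between -0.079 and -0.0034 in EryCP, far outside the spread of either group. Parp9 fell by 0.9 (adjusted p = 0.0362), which made 2 of 4 in the PARP and E3 ligase list. Tap1, a subunit of the peptide transporter that loads MHC class I, fell by 1.2 (adjusted p = 0.0391), 1 of 2 in its list. Rsad2 was 1 of 6 RNA and nucleotide effectors called. In the remaining list 3 of 5 were lower: the receptor chaperone Rtp4 (-2.23, adjusted p = 0.004), Bst2, the tetherin that holds virions at the cell surface (-1.31, adjusted p = 0.00927), and Ifi35 (-1.05, adjusted p = 0.011).

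Not all of these 19 calls held when 1 array was left out. Without the second Sca1hi array 11 members were called. Ifit3, Ifit1, Isg15, Bst2, Ifi35, Irgm1, Parp9, Irf9 and Tap1 each lost their call in at least 1 such fit, with an adjusted p of at most 0.17. With the slide as a block, 30 members were lower and 0 higher, in a fit that called 20.9% of all genes. Within each of the 3 slides, the median difference of the members was -0.94, -0.91 and -0.9.

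Between CR Sca1lo and Sca1hi, 10 of 38 members were lower and 0 higher (3.63% of all genes called, 2.4% lower). With no adjustment, 24 were lower and 0 higher at a p under 0.05. The median difference was -0.66 against 0.034 over all genes, and 37 of 38 were negative. Among genes above background on every array of both groups, 10 of 35 members were lower and 0 higher (3.95% of such genes called). The median there was -0.61 against 0.025. In 26 members the groups did not overlap with CR Sca1lo lower, which held for 8.03% of all genes.

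Rsad2 was 5.05-fold lower (-2.34 ± 0.22, adjusted p = 0.000984), with -2.34 to -0.84 over its 3 probes. Oasl2 fell by nearly as much (-2.33 ± 0.24, 5.03-fold, adjusted p = 0.00165). Of the RNA sensors, 2 of 3 fell: Ddx58 (-1.75 ± 0.13, adjusted p = 0.000413) and Dhx58 (-1.2 ± 0.21, adjusted p = 0.0174). Ddx58 was at -0.93, -0.96 and -1.06 in Sca1hi and at -2.64, -2.68 and -2.88 in CR Sca1lo, with no overlap. Parp14 (-1.88, adjusted p = 0.00057), Igtp (-1.37, adjusted p = 0.00129) and Rtp4 (-1.86, adjusted p = 0.016) were also lower. The probes ran from -1.88 to -0.14 for Parp14 and from -1.85 to -0.41 for Ddx58, so these sizes depend on the probe. Irf7 was at -1.36, -1.15 and -1.45 in Sca1hi and at -2.39, -2.91 and -2.66 in CR Sca1lo, a fall of 1.33 ± 0.2 (adjusted p = 0.0104). It was the 1 of 4 transcription factors called. Ifit3 (-2.3 ± 0.47, adjusted p = 0.035, with 2 of 3 CR Sca1lo arrays above background) and the antiviral factor Samd9l (-0.79, adjusted p = 0.0374) completed the 10.

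Most named members that missed the threshold here were still apart between groups. Isg15 was at -1.9, -1.61 and -1.73 in Sca1hi and at -2.75, -3.28 and -2.66 in CR Sca1lo, without overlap, and differed by -1.15 (adjusted p = 0.0563). Ifit1 differed by -1.76 (0.0662), Usp18 by -0.86 (0.0664), Irf9 by -0.72 (0.0753), Irgm1 by -0.74 (0.117), Stat2 by -0.53 (0.179) and Bst2 by -0.58 (0.271), also without overlap. Groups overlapped for Irf1 (-0.18, adjusted p = 0.975), Tap1 (-0.51, 0.563), Gbp2 (-0.21, 1), Oas1a (-0.062, 1) and Ifih1 (-0.13, 1). With the slide as a block, which called 17.9% of all genes, 22 members were lower and 0 higher, among them Isg15 (adjusted p = 0.00444), Ifit1 (0.0173), Usp18 (0.00326), Irf9 (0.00307) and Stat2 (0.00359). Within the 3 slides the median difference was -0.71, -0.77 and -0.65. The count was 5 without the second Sca1hi array and 6 without the first Sca1hi, first CR Sca1lo or second CR Sca1lo array, and Irf7, Dhx58, Rtp4, Ifit3 and Samd9l were the calls lost in such fits.

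Between EryCP and CR Sca1lo, 4 of 38 members were lower and 0 higher (5.01% of all genes called, 2.74% higher and 2.26% lower). Before adjustment, 10 were lower and 1 higher at that threshold. The median difference was -0.27 against -0.071 over all genes, and 12 members lay wholly lower (9.86% of genes) and 2 wholly higher (8.25%). Rsad2 fell again (-2.32 ± 0.22, 5-fold, adjusted p = 0.000542), as did Parp14 (-1.51 ± 0.16, 2.85-fold, adjusted p = 0.000898). The probes ran from -2.32 to -0.48 for Rsad2 and from -1.51 to -0.78 for Parp14.

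Irf1, which had not differed detectably between CR Sca1lo and Sca1hi, was the 1 transcription factor called at this step. It was at 2.38, 2.54 and 2.08 in CR Sca1lo and at 1.23, 0.93 and 1.19 in EryCP, without overlap, a fall of 1.22 ± 0.17 (2.33-fold, adjusted p = 0.00456). Its 3 within-slide differences ran from -1.36 to -1.15. Ddx58 fell by 0.72 ± 0.13 (adjusted p = 0.0185), a call that was lost in 5 of the fits without 1 array (to 0.0975) and under every other scaling tried.

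The rest of the named members did not pass. Oasl2 differed by -0.93 (adjusted p = 0.0781), Bst2 by -0.73 (0.124), Tap1 by -0.69 (0.281), Usp18 by -0.48 (0.339), Igtp by -0.18 (0.837), Irf7 by -0.28 (0.816), Isg15 by -0.33 (0.869) and Irgm1 by -0.26 (0.869). Ifit1 (-0.37), Ifit3 (-0.38), Ifih1 (-0.27), Oas1a (-0.23), Irf9 (-0.064), Gbp2 (-0.015) and Stat2 (0.15) all had an adjusted p of 1. With the slide as a block the count was 12, of which 10 were lower and 2 higher, and 20.2% of all genes were called. The 2 were the RNA exonuclease Isg20 (adjusted p = 0.00454) and Samd9l (0.043), and Oasl2 was among the lower ones (0.0286). Within slides the members' median was -0.3, -0.12 and -0.47.

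Oas1a, a 2-5A synthetase, differed more between slides than between fractions. On the first slide it was at -3.83 in Sca1hi, -4.27 in CR Sca1lo and -4.37 in EryCP. On the second it was at -2.74, -2.63 and -2.68, and on the third at -3.47, -3.33 and -3.86. With the slide as a block its adjusted p was 0.817 for CR Sca1lo against Sca1hi, 0.358 for EryCP against CR Sca1lo and 0.238 for EryCP against Sca1hi.

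Genes around the members in the pathway moved the same way in part. Of 9 interferon genes tested, 0 were called in any comparison of the first set. Of 12 receptor and signalling genes, 0 were higher and 4 lower in EryCP against Sca1hi; among them, and chosen after their values were seen, were the receptor subunits Ifnar2 (-1.67, adjusted p = 0.000749) and Ifnar1 (-0.86, adjusted p = 0.0337). The same list had 0 higher and 2 lower for CR Sca1lo against Sca1hi, and 2 and 2 for EryCP against CR Sca1lo. Of 12 genes of nucleic acid sensing, 0 were higher and 1 lower in EryCP against Sca1hi. Of all genes, 3.16% were called higher and 3.29% lower in EryCP against Sca1hi. The shares were 1.23% and 2.4% in CR Sca1lo against Sca1hi and 2.74% and 2.26% in EryCP against CR Sca1lo.

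Of 48 further interferon-stimulated genes outside the list, 2 were higher and 13 lower in EryCP against Sca1hi, 1 and 10 in CR Sca1lo against Sca1hi, and 2 and 6 in EryCP against CR Sca1lo. The shares of all genes just given apply beside these counts. For EryCP against Sca1hi the pathway genes that fell most were the chemokine Ccl5 (-4.96, adjusted p = 9.19e-06), the signalling inhibitor Socs3 (-4.35, adjusted p = 3.81e-06), Cxcl10 (-3.21, adjusted p = 0.0257, with 1 of 3 EryCP arrays above background), Trim30a (-2.69, adjusted p = 7.35e-05) and the growth regulator Slfn5 (-2.66, adjusted p = 5.71e-05). For CR Sca1lo against Sca1hi they were Ccl5 (-3.77), Socs3 (-2.42), Ifi27 (-1.86), the interferon gamma receptor subunit Ifngr2 (-1.62) and Slfn5 (-1.6). For EryCP against CR Sca1lo they were Socs3 (-1.92), Trim30a (-1.47), Ccl5 (-1.19), Slfn5 (-1.06) and Slfn8 (-1.06).

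Markers of other cell types moved across the same fractions. The summed signal of the 4 of 6 macrophage markers on the array was 8.4 to 9.47 times the 75th percentile in Sca1hi, 4.96 to 5.72 in CR Sca1lo and 2.61 to 2.99 in EryCP. Of those 4 markers, 3 were above background on every array of each fraction, and Mrc1 was on no Sca1hi or CR Sca1lo array. Of the 3 macrophage markers tested, 1 was lower and 0 higher in EryCP against Sca1hi. Dendritic cell markers summed to 2.68 to 3.26 in Sca1hi, 2.3 to 3.16 in CR Sca1lo and 1.44 to 2.61 in EryCP. The 8 erythroid markers summed to 1.26 to 1.99, 1.31 to 1.83 and 12.6 to 15.2 in the same order, and 6 of the 8 were higher in EryCP than in Sca1hi. Neutrophil markers summed to 0.354 to 0.664 in Sca1hi, 0.666 to 1.09 in CR Sca1lo and 10.8 to 14.8 in EryCP, and S100a8 was above background on no Sca1hi array. Mast cell and basophil markers summed to 181 to 285, 164 to 234 and 319 to 434, lymphoid markers to 40.5 to 58.8, 39.2 to 55.4 and 23.4 to 35.2, and megakaryocyte markers to 10.2 to 16.2, 17.1 to 23.8 and 19.8 to 25.9. The part of these cell types in the result was not tested.

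In the second set, Ediff cells and the EryCP repeat differed at most genes: 56.6% of the 24669 genes tested were called, 39.6% higher and 17% lower in Ediff. Of 32 members tested, 15 were higher and 9 lower, and the members' median difference of 0.47 lay beside 0.45 over all genes. The groups did not overlap in 14 members that were higher (43.7% of all genes) and 12 that were lower (19.6%). With most genes called, these counts set nothing apart by themselves, and the values below show which members lay at either end. Oas2, Ifit1, Ifit2, Ifit3, Ddx58, Ifi44, Parp12 and Gbp3 were above background on every array of neither group and were not tested.

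**Figure D2:**
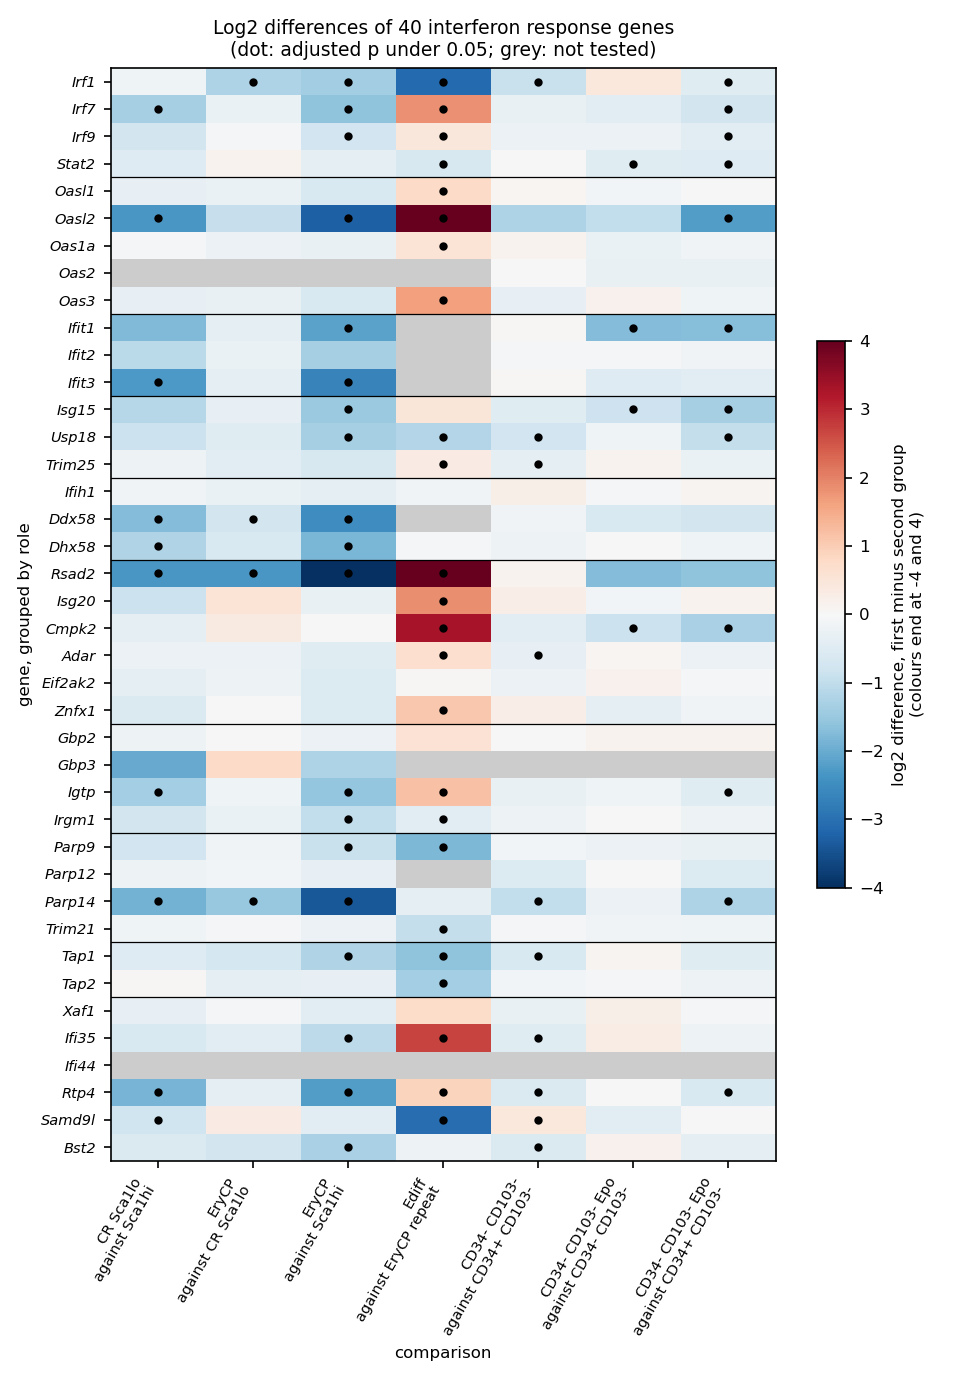
Colour map of the log2 difference of the 40 members (rows, grouped by role) in the 7 comparisons (columns), blue where the first group was lower and red where it was higher, with a dot for an adjusted p under 0.05 and grey where a gene was not tested. In EryCP against Sca1hi all 38 tested members were below 0. In Ediff against the EryCP repeat members run from 6.09 (Oasl2) to -3.11 (Irf1, whose second probe gave -0.31).

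Oasl2 was at -1.14, -1.05 and -0.92 in Ediff and read -7.17, -6.96 and -7.23 in the EryCP repeat, where all 3 arrays were below background. The difference was 6.09 ± 0.11 (adjusted p = 1.59e-06), and Oasl2 was at least 41.4-fold higher in Ediff. Where one group was wholly below background, a fold is given as "at least", against the lowest signal that counted as above background. Rsad2 was at -2.46, -2.94 and -2.8 in Ediff and read -6.87, -7.03 and -6.6, below background, in the repeat, at least 12.8-fold higher (4.1 ± 0.17, adjusted p = 1.49e-05). The 3 Rsad2 probes gave 0.42 to 4.1 in this comparison.

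At the scaling used, all 4 tested genes of the 2-5A synthetase list were called higher in Ediff, as were 39.6% of all genes. They were Oasl2, Oas3 (1.63 ± 0.51, adjusted p = 0.036), Oasl1 (0.76, adjusted p = 0.0361) and Oas1a (0.55 ± 0.11, adjusted p = 0.00843). Under spike-in scaling Oas1a (-0.41) and Oasl1 (-0.19) turned negative. The Oas3 groups touched, with -3.4 on 1 array of each, and its differences within the 2 slides were smaller, from 0.9 to 1.54. Of 6 RNA and nucleotide effectors, 5 were higher and 0 lower. Cmpk2, a mitochondrial nucleotide kinase, was at -1.98, -1.73 and -2.22 in Ediff and at -5.5, -5.29 and -5.04 in the repeat, 9.84-fold higher (3.3 ± 0.18, adjusted p = 3.49e-05). Isg20 was at 3.07, 3.09 and 3.06 against 1.31, 1.07 and 1.28, 3.62-fold higher (1.86 ± 0.1, adjusted p = 3.61e-05). The helicase-like Znfx1 (1.09, adjusted p = 0.000208) and the RNA-editing enzyme Adar (0.66, adjusted p = 0.00157) completed this list with Rsad2.

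The transcription factors split, with 2 of 4 higher and 2 lower. Irf1 was at -1.9, -1.82 and -2.01 in Ediff and at 1.2, 1.18 and 1.22 in the repeat, 8.64-fold lower (-3.11 ± 0.09, adjusted p = 4.17e-06), whereas its second probe gave -0.31. Stat2 was lower as well (-0.65 ± 0.08, 1.57-fold, adjusted p = 0.00111). Irf7 was at -2.01, -2.01 and -1.91 in Ediff and at -3.83, -3.65 and -3.97 in the repeat, 3.58-fold higher (1.84 ± 0.11, adjusted p = 6.14e-05). Irf9 was higher by 0.46 ± 0.08 (adjusted p = 0.00505). The groups did not overlap for any of these 4 genes.

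Both peptide transporter subunits fell, Tap1 by 1.61 ± 0.13 (3.06-fold, adjusted p = 0.000222) and Tap2 by 1.36 (adjusted p = 0.000475). In the PARP and E3 ligase list Parp9 (-1.8 ± 0.1, adjusted p = 4.75e-05) and Trim21 (-0.94, adjusted p = 0.000619), an intracellular antibody receptor, were lower, while Parp14 differed by -0.36 (adjusted p = 0.0818) with its probes ranging from -0.36 to 1.33. In the Isg15 system 1 of 3 was higher and 1 lower: Trim25, an E3 ligase, rose by 0.34 (adjusted p = 0.0327) and Usp18 fell by 1.16 ± 0.09 (2.23-fold, adjusted p = 0.000143). Isg15 itself was at -3.65, -4.26 and -3.53 in Ediff and at -4.4, -4.15 and -4.34 in the repeat, with overlap, and differed by 0.49 (adjusted p = 0.0911).

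Of 3 GTPases, Igtp was 2.26-fold higher (1.18 ± 0.1, adjusted p = 0.00025), Irgm1 was lower (-0.44 ± 0.12, adjusted p = 0.0196) and Gbp2 differed by 0.57 (adjusted p = 0.105). Among the other members Ifi35 was at 3.44, 3.65 and 3.89 in Ediff and at 1.08, 0.84 and 1 in the repeat, 6.43-fold higher (2.69 ± 0.14, adjusted p = 3.44e-05). Rtp4 was also higher (0.89, adjusted p = 0.0165). Samd9l went the other way: it was at -2.93, -2.97 and -2.99 in the repeat and below background on all Ediff arrays, at least 7.32-fold lower at the scaling used (-3.06 ± 0.12, adjusted p = 9.36e-06). Its difference ran from -4.02 to -0.55 in the other scalings, so the size depends on the scaling. Bst2 (-0.21, adjusted p = 0.121) and the sensor Ifih1 (-0.13, adjusted p = 0.339, with 2 Ediff arrays because 1 spot was marked as an outlier) were not called.

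The direction of the smaller changes in Ediff depended on scaling. Over all genes the median difference was 0.45, and it became -0.5 when the arrays were scaled on the 10 spike-in probes, 0.19 under quantile normalization and 0.1 in the deposited normalized values. Under spike-in scaling 6 members were called higher and 16 lower, and Adar, Irf9, Oas1a, Oasl1, Rtp4 and Trim25 had negative differences. Oasl2 (2.43 to 5.85), Rsad2 (1.5 to 3.87), Cmpk2 (1.62 to 3.06), Ifi35 (1.73 to 2.71), Isg20 (0.9 to 1.91), Irf7 (0.88 to 1.61), Oas3 (0.65 to 1.39), Igtp (0.22 to 1.16) and Znfx1 (0.14 to 1.07) stayed positive in the 5 other scalings, and Irf1 stayed negative (-4.07 to -2.65). The other lower members, Parp9, Samd9l, Stat2, Tap1, Tap2, Trim21, Usp18 and Irgm1, were negative in every alternative fit that tested them. There Parp9 ran from -2.76 to -1.34, Tap1 from -2.57 to -1.08 and Irgm1 from -1.4 to -0.36. Spike-in scaling, which moved the median of all genes down, favours a negative sign. Irgm1, Rtp4, Oas3, Oasl1 and Trim25 each lost their call without 1 or more single arrays, with an adjusted p of at most 0.11. The slides were not balanced: Ediff had 2 arrays on the first and 1 on the second, and the EryCP repeat had 1 and 2. The 2 slides gave a median member difference of 0.41 and 0.25. With the slide as a block 17 members were higher and 9 lower (66.9% of all genes called), with a median of 0.37 against 0.36 over all genes.

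Of 7 interferon genes tested, 3 were higher in Ediff and 0 lower, where 39.6% of all genes were called higher and 17% lower. The 3 were Ifna2 at 1.08 (adjusted p = 0.00241, with 0.12 to 0.85 in the other scalings), Ifna9 and Ifna13, both at 0.77. The alpha interferon genes are near-identical copies, so their probes may not separate them, and Ifna9 and Ifna13 turned negative under spike-in scaling. Of 12 receptor and signalling genes 4 were higher and 6 lower, with Ifnar2 at 1.4 (adjusted p = 0.000217) and Ifnar1 at -0.15 (adjusted p = 0.162), both chosen after their values were seen. Of 12 sensing genes 4 were higher and 4 lower, and of 44 further stimulated genes 13 were higher and 12 lower. The shares of all genes given above apply beside each of these counts, which set nothing apart by themselves. The pathway genes that differed most were the immunoproteasome subunit Psmb8 (-4.3, adjusted p = 3.08e-06), Ifitm1, which blocks virus entry (-4.25, adjusted p = 7.14e-06), the GTPase Irgm2 (3.79, adjusted p = 2.52e-06), the Isg15-conjugating enzyme Ube2l6 (3.52, adjusted p = 9.44e-05) and Socs3 (3.39, adjusted p = 9.1e-06).

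Erythroid markers summed to 787 to 808 times the 75th percentile in Ediff and to 29 to 39 in the EryCP repeat, and all 8 were called higher. Progenitor markers summed to 8.92 to 12.3 in Ediff and 106 to 123 in the repeat, with 5 of 5 lower, and mast cell and basophil markers to 2.31 to 3.11 and 337 to 400. Lymphoid markers summed to 1.24 to 1.84 in Ediff and 29.8 to 30.6 in the repeat, with Il7r above background on no Ediff array. Neutrophil markers summed to 0.217 to 0.379 and 1.55 to 1.93, megakaryocyte markers to 18.4 to 22.5 and 33.8 to 42.8, and dendritic cell markers to 1.35 to 1.81 and 1.13 to 1.3. Macrophage markers summed to 1.32 to 1.52 and 0.79 to 0.886, with 3 of 4 above background on every array and Mrc1 on none. The part of these shifts in the members' differences was not tested.

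In the third set, 9 of 38 members were lower and 1 higher in CD34- CD103- than in CD34+ CD103- cells (12.4% of 27350 genes called, 5.65% higher and 6.76% lower). At an unadjusted p under 0.05, 17 were lower and 3 higher. The median difference was -0.22 against -0.061 over all genes, and 11 members were wholly lower (9.65% of genes) and 2 wholly higher (7.39%). Ifi44 and Gbp3 were not tested. Oas2, Parp12 and Ifit3 were tested only because CD34+ CD103- cells had them above background on every array, which favours lower values against that group. Among genes above background on every array of both groups, 10 of 35 members were lower and 1 higher (12.9% of such genes called). The median there was -0.23 against -0.059.

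Usp18, Parp14 and Irf1 had the smallest adjusted p of the members. It was at -1.6, -1.64, -1.49 and -1.64 in CD34- CD103- cells and at -0.76, -0.74, -0.94 and -0.88 in CD34+ CD103- cells, 1.7-fold lower (-0.77 ± 0.08, adjusted p = 6.53e-05). Parp14 was at -2.63, -2.23, -2.67 and -2.33 against -1.61, -1.37, -1.37 and -1.49, 2-fold lower (-1.0 ± 0.12, adjusted p = 0.000211). The Parp14 probes ranged from -1.38 to -0.67. Irf1 was at 1.17, 1.33, 1.06 and 1.25 against 2.05, 2.26, 1.92 and 2.12, 1.85-fold lower (-0.88 ± 0.1, adjusted p = 0.000146). None of these 3 genes had overlapping groups, and Irf1 was the 1 of 4 transcription factors called.

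Trim25 (-0.4, adjusted p = 0.00238) joined Usp18 as 2 of 3 in the Isg15 system, and Isg15 differed by -0.5 (adjusted p = 0.0516). Tap1 (-0.62, adjusted p = 0.0319), Rtp4 (-0.58, 0.00681), Bst2 (-0.57, 0.00671), Ifi35 (-0.49, 0.0204) and Adar (-0.33, 0.0462) were lower, and Samd9l was higher (0.42, adjusted p = 0.047). Tap1, Ifi35, Adar and Samd9l lost their call without single arrays, with an adjusted p of at most 0.127. The count was 6 without the first or the fourth CD34+ CD103- array.

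Rsad2, which differed most in the first set, was at -2.62, -2.14, -3.35 and -2.39 in CD34- CD103- and at -2.62, -2.83, -2.7 and -2.85 in CD34+ CD103- cells, with overlap (0.13, adjusted p = 0.888). Oasl2 was at -4.55, -4.26, -5 and -4.28 against -3.74, -3.78, -1.73 and -3.85, where the third CD34+ CD103- array stood apart. It differed by -1.25 (adjusted p = 0.0939), and by -1.56 (adjusted p = 0.00887) with the slide as a block. By the probes used here, none of the 3 RNA sensors, 5 synthetases, 3 IFIT genes or 3 GTPases was called. Values were -0.31 (adjusted p = 0.0569) for Igtp, -0.21 (0.106) for Irgm1, 0.22 (0.132) for Ifih1, -0.23 (0.187) for Irf9, -0.31 (0.205) for Irf7, 0.13 (0.732) for Oas1a and -0.026 (0.891) for Stat2. Ifit1 (0.044, 0.943), Ifit3 (0.052, 0.956) and Gbp2 (0.016, 0.956) were also near 0. With the slide as a block 12 were lower and 1 higher (17.6% of all genes called), Samd9l (adjusted p = 0.0765) and Tap1 (0.0572) were no longer called, and the median difference within the 3 slides was -0.24, -0.3 and -0.19. Oas2 depended on the probe: by the probe brightest in this set it was lower in CD34- CD103- cells (-0.79, adjusted p = 0.000654).

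After Epo, CD34- CD103- cells had 4 of 38 members lower and 0 higher than untreated CD34- CD103- cells (2.54% of genes called, 1.89% lower). Before adjustment, 10 were lower and 2 higher at a p under 0.05. The median difference was -0.13 against 0.077 over all genes, and 12 members were wholly lower (7.41% of genes) and 4 wholly higher (11.7%). The 4 were Ifit1, Cmpk2, Isg15 and Stat2.

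Ifit1 was at -5.21, -4.63, -5.2 and -4.18 before and read -6.67, -6.89 and -6.08 after Epo, where only the array at -6.08 was above background, 3.34-fold lower (-1.74 ± 0.27, adjusted p = 0.00544). Isg15 was at -3.68, -4.02, -4.08 and -4.01 before and at -4.66, -4.79 and -4.91 after, 1.79-fold lower (-0.84 ± 0.16, adjusted p = 0.0214). Stat2 was at 1.08, 1, 1 and 1.02 before and at 0.38, 0.5 and 0.7 after, 1.41-fold lower (-0.5 ± 0.09, adjusted p = 0.0149). No array overlapped in any of these 3 genes.

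Cmpk2 was at -4.39, -4.13, -4.69 and -4.55 before and at -5.27, -5.37 and -5.27 after Epo, 1.82-fold lower (-0.86 ± 0.15, adjusted p = 0.0103), but its second probe gave 0.074. Without the second Epo array 1 member was called, Ifit1, and Cmpk2 had an adjusted p of 0.0568 there. Stat2 lost its call without the first or second Epo array (to 0.0775), and Isg15 without any of 4 arrays (to 0.116). Over all alternative fits the difference ran from -1.97 to -0.25 for Ifit1 (adjusted p to 0.21) and from -1.06 to -0.12 for Cmpk2 (to 0.433). It ran from -1.03 to -0.21 for Isg15 (to 0.331) and from -0.69 to -0.42 for Stat2, so the folds depend on the processing. Rsad2 was at -3.26, -5.33 and -4.51 after Epo, overlapping the untreated arrays, and differed by -1.74 ± 0.42 (adjusted p = 0.0593). Its 3 probes gave -1.74 to -0.26.

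Oasl2 differed by -1.0 (adjusted p = 0.315), Irf7 by -0.43 (0.189), Usp18 by -0.18 (0.3) and Igtp by -0.18 (0.404), all without overlap. Irf1 was wholly higher after Epo and differed by 0.41 (adjusted p = 0.072). The others overlapped: Irf9 (-0.22, adjusted p = 0.348), Oas1a (-0.27, 0.511), Bst2 (0.17, 0.519), Ifit3 (-0.51, 0.562), Gbp2 (0.13, 0.629), Ifih1 (-0.091, 0.633), Tap1 (0.12, 0.752) and Irgm1 (0.013, 0.946). Epo arrays were on 2 of the 3 slides, where the members' median difference was -0.19 and -0.058, and 4 members were called with the slide as a block (3.35% of all genes).

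Against CD34+ CD103- cells, the Epo group had 12 of 38 members lower and 0 higher (5.44% of genes called, 2.56% higher and 2.88% lower). At an unadjusted p under 0.05, 21 were lower and 0 higher. The median was -0.3 against 0.02 over all genes, and 21 members were wholly lower (9.19% of genes) and 0 wholly higher (9.39%). Oas2, Parp12 and Ifit3 entered through CD34+ CD103- cells alone, which favours a negative sign. Among genes above background on every array of both groups, 12 of 34 members were lower and 0 higher (5.62% of such genes called). The median there was -0.25 against 0.022. All 4 transcription factors were lower: Irf7 (-0.74, adjusted p = 0.0172), Stat2 (-0.52, 0.00678), Irf1 (-0.47, 0.0263) and Irf9 (-0.45, 0.0374). Isg15 was at -3.29, -3.13, -3.78 and -3.59 in CD34+ CD103- cells, above all Epo arrays, and was 2.53-fold lower after Epo (-1.34 ± 0.16, adjusted p = 0.00077). Usp18 was 1.93-fold lower (-0.95 ± 0.08, adjusted p = 0.000105).

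Oasl2 fell by 2.25 ± 0.46 (4.77-fold, adjusted p = 0.0184), Ifit1 by 1.69 ± 0.27 (adjusted p = 0.00433), Cmpk2 by 1.31 ± 0.15 (0.000478), Parp14 by 1.23 ± 0.12 (0.000275), Rtp4 by 0.6 (0.0173) and Igtp by 0.49 (0.0181). The probes ran from -1.31 to -0.39 for Cmpk2 and from -1.68 to -0.61 for Parp14, so these sizes depend on the probe. Over all alternative fits the difference ran from -2.09 to -0.18 for Ifit1 (adjusted p to 0.308) and from -1.7 to -0.26 for Cmpk2 (to 0.115). For Isg15 it ran from -1.73 to -0.41 (to 0.0634), and Parp14 and Usp18 kept their calls in all of them. The Oasl2 call was lost without any single Epo array (to 0.098), Irf7, Rtp4, Igtp, Irf1 and Irf9 also lost theirs in such fits (to at most 0.173), and 7 members were called without the first or the third Epo array. Rsad2 differed by -1.62 without overlap (adjusted p = 0.0523) and by -1.75 (adjusted p = 0.0263) with the slide as a block. Not called were Bst2 (-0.4, adjusted p = 0.0911), Tap1 (-0.5, 0.161), Irgm1 (-0.2, 0.242), Ifih1 (0.12, 0.582), Gbp2 (0.15, 0.672), Ifit3 (-0.46, 0.688) and Oas1a (-0.14, 0.828).

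Around the members in the third set, 0 of 8 interferon genes were called in any comparison. Of 12 receptor and signalling genes, 1 was higher and 3 lower in CD34- CD103- against CD34+ CD103- cells, 0 were called after Epo against CD34- CD103- cells, and 0 were higher and 2 lower after Epo against CD34+ CD103- cells. Of 50 further stimulated genes 3 were higher and 14 lower, 1 and 3, and 1 and 11 in the same order. Of all genes, 5.65% were called higher and 6.76% lower, 0.654% and 1.89%, and 2.56% and 2.88% in that order. The pathway genes that fell most in CD34- CD103- against CD34+ CD103- cells were Trim30a (-1.35), Ifitm1 (-1.23), the DNA sensor Ifi204 (-0.92), Lgals3bp (-0.89) and Ifi27 (-0.77). After Epo against CD34- CD103- cells 4 were called: Ccl5 (-1.94), Slfn2 (-0.63), Tdrd7 (-0.59) and the proteasome subunit Psmb10 (0.51).

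The CD34- CD103- group carried more summed signal from macrophage and neutrophil markers than the 2 other groups. Macrophage markers summed to 6.59 to 8 in CD34- CD103-, 2.59 to 2.95 in CD34+ CD103- and 1.49 to 1.62 after Epo, with 3 of 4 above background on every array and Mrc1 on none, and neutrophil markers to 18 to 22.9, 0.842 to 1.17 and 0.387 to 1.24. Erythroid markers summed to 6.01 to 8.9, 0.983 to 1.45 and 4.28 to 5.02, and mast cell and basophil markers to 405 to 432, 246 to 287 and 286 to 305. Lymphoid markers summed to 39.8 to 51.4, 57.1 to 73.9 and 50.5 to 59.9, megakaryocyte markers to 27 to 33, 16.8 to 22.3 and 33.6 to 44.8, and dendritic cell markers to 1.61 to 2.25, 2.15 to 2.75 and 1.86 to 2.31. The part of these cells in the members' differences was not tested.

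**Figure D3:**
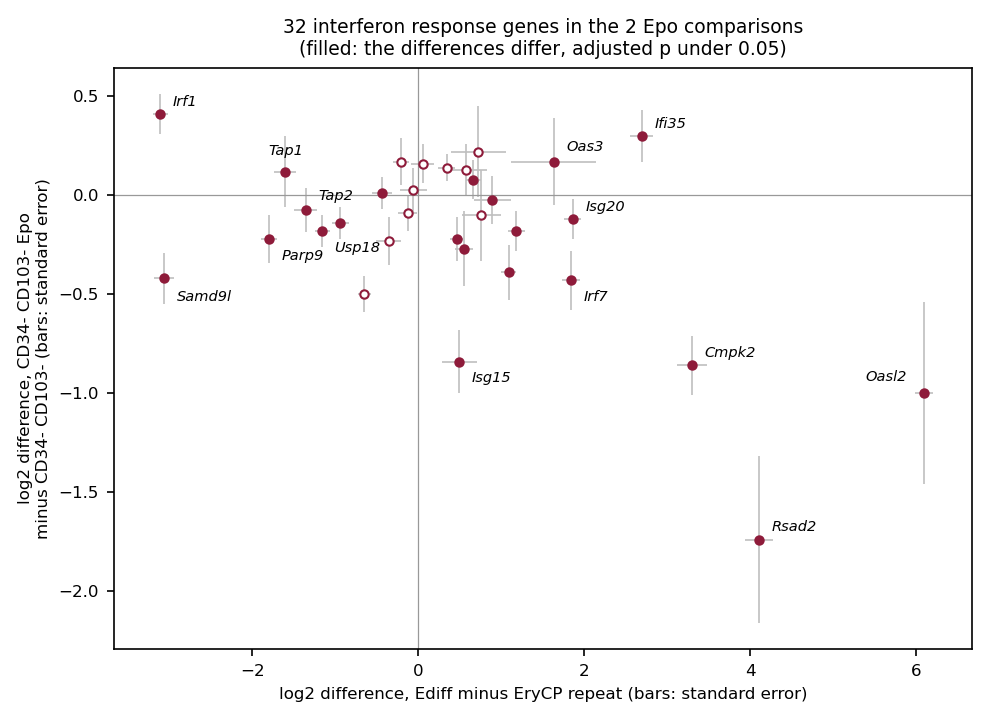
Difference of each member tested in both Epo comparisons (log2), with Ediff against the EryCP repeat on the horizontal axis and CD34- CD103- Epo against CD34- CD103- on the vertical axis; bars are standard errors, and filled points are members whose 2 differences differed at an adjusted p under 0.05. Oasl2, Rsad2 and Cmpk2 lie at 6.09, 4.1 and 3.3 on the horizontal axis and at -1.0, -1.74 and -0.86 on the vertical.

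The 2 comparisons that involve Epo share no arrays, and their difference was tested in 1 fit over both sets, in which each set kept its own level. The 2 are not alike in design: Ediff cells were also selected for loss of CD34 and cKit, and the doses and times are not given. Of 32 members tested in both, 22 differed between the responses, 14 of them with the smaller value in CD34- CD103- cells and 8 with the larger (42.1% of genes called, 26.1% and 16%). At an unadjusted p under 0.05 the counts were 15 and 9, and the median was -0.47 against -0.35 over all genes.

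Among members above background in all 4 groups, Cmpk2 (-4.16 ± 0.23, adjusted p = 3.71e-08) and Irf1 (3.53 ± 0.13, adjusted p = 1.28e-09) differed most by the probes used. The second Irf1 probe gave -0.31 in Ediff and 0.3 after Epo in CD34- CD103- cells, so the size for Irf1 depends on the probe. The fitted values of Oasl2 (-7.09 ± 0.28, adjusted p = 2.38e-09), Rsad2 (-5.85 ± 0.6, adjusted p = 1.01e-05) and Samd9l (2.65 ± 0.16, adjusted p = 8.22e-08) rest on a group that was below background on all arrays, and are not ranked. In the other scalings they ran from -6.87 to -2.59 for Oasl2, from -5.63 to -2.43 for Rsad2 and from 0.24 to 3.41 for Samd9l, whose call was lost in 1 of them. Cmpk2 was the 1 member called in opposite directions by the 2 comparisons, higher in Ediff and lower in CD34- CD103- cells after Epo, by its most intense probe. Ifi35 (-2.39), Irf7 (-2.27) and Isg20 (-1.98) also differed in the negative direction, and Tap1 (1.73), Parp9 (1.58) and Tap2 (1.29) in the positive. Stat2, lower in both comparisons, differed between them by 0.15 and was not called. Under spike-in scaling the split was 15 higher and 8 lower, and the median over all genes moved from -0.35 to 0.42.

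Across all 7 comparisons, 9 members were called in none: Oas2, Ifit2, Ifih1, Xaf1, Ifi44, Parp12, Gbp2, Gbp3 and Eif2ak2. A block on the slide called 5 of the 9: Ifit2 in CR Sca1lo (adjusted p = 0.0438) and EryCP (0.0179) against Sca1hi, Xaf1 in EryCP against Sca1hi (0.0231) and in Ediff (0.0114), Eif2ak2 in EryCP against Sca1hi (0.0103) and in CD34- CD103- against CD34+ CD103- cells (0.0401), Gbp2 in Ediff (0.0254) and Ifih1 in CD34- CD103- against CD34+ CD103- cells (0.0481). Oas2 was called by another of its probes. Eif2ak2, which encodes the RNA-dependent kinase PKR, and Ifih1 were tested in every set. Of the 14 members with several probes, the probes gave both signs in 2, 2 and 1 for the comparisons of the first set (in the order CR Sca1lo against Sca1hi, EryCP against CR Sca1lo, EryCP against Sca1hi), 3 in Ediff, and 4, 6 and 2 in the third set. EryCP was measured in 2 sets, which were scaled separately and not tested against each other. Rsad2 was above background on all 3 EryCP arrays of the first set and on none of the repeat, and Cmpk2 was at -1.56, -4.06 and -4.69 in the first set, where 1 array stood apart, and at -5.5, -5.29 and -5.04 in the repeat.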

How the data were processed

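RNA was measured on 1-colour Agilent arrays, with amplification and Cy3 labelling per the labels' protocols. The deposited Feature Extraction tables give a processed signal intensity per spot, background-subtracted by the scanner software per the file headers. A deposited table of the authors' normalized log2 values was used as an alternative; its column medians lay between 7.09 and 7.29, with scaling and centring not stated.

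Processed signals were put on the log2 scale minus the 75th percentile of each array; control spots and outliers were dropped and replicate spots of 1 probe averaged. The tables hold accessions and no gene symbols, so 27071 of 41174 probes were named through RefSeq; 14103 stayed unnamed and each counted as a gene. A gene was tested in a set where all arrays of 1 or more of the groups had its probe above background. Differences were fitted with limma 3.58.1 in R 4.3.3 (lmFit and eBayes) within each set, over the groups of that set only, and adjusted by Benjamini-Hochberg. The scripts were tested on simulated data.

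The members and lists were chosen with earlier results of these data known. A fixed set of 18 members was named in every comparison, with up to 10 further called members of largest difference, and up to 5 called pathway genes. Alternatives were normexp, quantile, spike-in and deposited scaling, the slide as a block, probe choice, filters, each array left out and, chosen after seeing the data, centring on the median gene. No saturated spot was found.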

Additional observations from a re-analysis of the deposited data

Results flagged for a closer look

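The 40 members were each examined in CD34- CD103- and in CD34+ CD103- cells, the groups with 4 arrays, which made 80 sets of values. In 4 of the 80, all in CD34+ CD103- cells, 1 array stood apart from the rest. For independent sets chance gives about 1 in 20, and the count did not exceed that. Members share arrays, so the sets are not independent and the count does not decide the matter. The third CD34+ CD103- array held Oasl2 at -1.73, Ifit2 at -5.17 and Ifi35 at 0.44, and the fourth held Tap2 at -0.062.

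The 2 comparisons that involve Epo differed, by a test of the difference itself, in 22 of 32 members (42.1% of all genes called). Ediff cells were also selected for loss of CD34 and cKit, so the 2 are not alike in design. The change in CD34- CD103- cells minus the change in Ediff was negative for Oasl2 (-7.09), Rsad2 (-5.85), Cmpk2 (-4.16), Ifi35 (-2.39), Irf7 (-2.27), Isg20 (-1.98), Znfx1 (-1.48), Oas3 (-1.46), Igtp (-1.36), Isg15 (-1.32), Rtp4 (-0.91), Oas1a (-0.81), Irf9 (-0.68) and Adar (-0.58). It was positive for Irf1 (3.53), Samd9l (2.65), Tap1 (1.73), Parp9 (1.58), Tap2 (1.29), Usp18 (0.98), Trim21 (0.8) and Irgm1 (0.46). Adar and Irf9 changed sign under spike-in scaling, and Oas3 lost its call in 11 of the fits without 1 array (adjusted p up to 0.118). The value for Irf1 depends on the probe, as its second probe gave -0.31 in Ediff and 0.3 in CD34- CD103- cells after Epo.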

How the results depend on the processing

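No paired analysis was possible because replicate numbers only name the arrays of a group. The slide was used as a block instead: it gave 22 called members for CR Sca1lo against Sca1hi (10 without it; 17.9% of all genes called), 12 for EryCP against CR Sca1lo (4; 20.2%) and 30 for EryCP against Sca1hi (19; 20.9%). Quantile normalization gave 16 and the deposited values 21 for CR Sca1lo against Sca1hi, and the deposited values 7 for EryCP against CR Sca1lo. Centring on the median gene, chosen after seeing the data, gave 1 for EryCP against CR Sca1lo and 11 for EryCP against Sca1hi. With CD34+ CD103- cells as the comparator, spike-in scaling gave 16 for CD34- CD103- cells (15.7% of all genes called) and 28 for the Epo group (26.8%, with the median of all genes at -0.37). Normexp gave 2 for CD34- CD103- Epo against CD34- CD103- and 7 against CD34+ CD103-. Without 1 array the counts ran from 5 to 11, 3 to 5 and 11 to 18 in the first set, 19 to 27 for Ediff, and 6 to 12, 1 to 5 and 7 to 13 in the third set, in the order of the report, and from 21 to 24 for the difference between the Epo responses. The cause was not tested for any of these.

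Spike-in scaling turned the median difference of the members from 0.47 to -0.48 in Ediff, where all genes moved from 0.45 to -0.5, and from -0.47 to 0.3 for the difference between the Epo responses. In Ediff against the EryCP repeat, it turned Adar to -0.3, Eif2ak2 to -0.9, Irf9 to -0.5, Oas1a to -0.41, Oasl1 to -0.19, Rtp4 to -0.071 and Trim25 to -0.62, and normexp turned Ifih1 to 0.27. For the difference between the Epo responses spike-in scaling turned Adar to 0.18, Irf9 to 0.085 and Trim25 to 0.57. Taking the brightest probe of the set gave -0.79 for Oas2 in CD34- CD103- against CD34+ CD103-. The alternative by symbols in the scanner files was not run, since they hold accessions only. Probes near background limit Oasl2, Rsad2, Samd9l and the IFIT genes, whose differences are bounds or rest on few arrays there.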

Other observations

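Oas3 and Gbp2 differed between the slides of the first set. Oas3 was at -3.65 in Sca1hi, -3.92 in CR Sca1lo and -4.2 in EryCP on the first slide, at -1.83, -2.27 and -2.72 on the second, and at -2.75, -3.01 and -3.17 on the third. Gbp2 was at -2.09, -2.37 and -2.43 on the first slide, at -0.87, -1.05 and -1.11 on the second, and at -1.53, -1.71 and -1.64 on the third. Within each slide Oas3 had the order Sca1hi, CR Sca1lo, EryCP, although its groups overlapped when the slides were pooled. With the slide as a block Oas3 was lower in EryCP than in Sca1hi (-0.62, adjusted p = 0.00647). These members were chosen after their values were seen.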
